A study of Mus musculus with 23 samples.

Results

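Testes of NZO/HlLtJ males on a diet with 44% fat were compared with testes of C57BL/6J males on the same diet. The libraries were those labelled with this diet and either strain, 8 of the 23 in the series. The 4 NZO/HlLtJ libraries came from an inbred strain known for obesity and a tendency to diabetes. The 4 C57BL/6J libraries came from the strain of the mouse reference genome. All 8 came from wild-type males kept from 6 to 16 weeks of age on the diet labelled 44% fat + fiber, which the submitters describe as high in fat and sugar. The remaining libraries were 4 of each of these strains on the control diet labelled 10% fat + fiber, which are used here only to measure the strain difference in other animals, and libraries of CAST/EiJ, which enter only the shared estimate of the spread. Whole testis was sequenced, so each value averages over germ cells and somatic cells. Inbred strains differ at many loci together, and body weight or blood glucose is not part of the labels used here.

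PolyA RNA was read as 100 bp pairs, and the deposited table gives estimated counts per gene. Totals were 31.9 to 40.9 M estimated counts in NZO/HlLtJ and 34.1 to 37.2 M in C57BL/6J. Levels below are counts per 1000000 counts after TMM scaling (CPM), and they are not scaled by gene length, so levels of different genes are not compared with each other. A gene is called higher or lower where the quasi-likelihood F test of edgeR gave a Benjamini-Hochberg adjusted p under 0.05 over all 22873 genes tested. Fold changes are NZO/HlLtJ over C57BL/6J on the log2 scale, given with a standard error (SE). The fit gives no SE itself. It was derived as the size of the log2 fold change over the square root of its F statistic. It is therefore approximate, above all for genes near 0 counts in a strain. A gene given as higher by a value, or as having fallen by one, has that log2 fold change. Markers of the tissue were present in every library, with the protamine gene Prm1 between 1096 and 1178 CPM in NZO/HlLtJ and between 1304 and 1461 CPM in C57BL/6J. The epididymis markers Lcn5 and Lcn8 were not among the genes tested, and Crisp1 lay between 0 and 0.207 CPM in NZO/HlLtJ, against 0.0295 to 0.192 CPM in C57BL/6J. The class II gene H2-Ea-ps, which a known deletion silences in C57BL/6 mice, had 361 counts over the NZO/HlLtJ libraries and 0 over the C57BL/6J libraries, at least 112-fold higher against a floor of 3 counts over the group. On the first principal component of the 16 libraries of these strains, with 61.4% of the variance, the strains separated completely. On the second, with 4.23%, C57BL/6J 10% fat replicate 4, also the shallowest of the 16 with 21.9 M counts, stood apart at a score of -48.0, while the other 3 libraries of its group lay between -6.90 and 22.2. On the third, with 3.58%, NZO/HlLtJ 44% fat replicate 3 stood apart at a score of -33.7, while the other 3 NZO/HlLtJ libraries on this diet lay between -1.98 and 6.77.

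The testis makes sperm and testosterone in separate compartments. Leydig cells between the tubules respond to luteinizing hormone, bring cholesterol into mitochondria and turn it into testosterone through a chain of enzymes. Sertoli cells inside the tubules seal the blood-testis barrier and support the germ cells, which pass from spermatogonia through meiosis to round and then elongating spermatids. Many germ cell transcripts are made by haploid spermatids alone, so their share of whole-testis RNA follows the makeup of the tissue as well as the activity of each gene.

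Testosterone synthesis held a pair of neighbouring genes that moved in opposite directions. Hsd3b1 and Hsd3b6 encode 3-beta-hydroxysteroid dehydrogenases, which turn pregnenolone into progesterone, and in mouse Hsd3b6 is known as a form of adult Leydig cells. Both lie on chromosome 3 of GRCm38, Hsd3b1 at 98852194 to 98859794 and Hsd3b6 at 98805504 to 98814443, on the minus strand. The 250 bases before each start site are shown, from RefSeq on GRCm38.p6, because these neighbours carry the most divergent pair of results in the steroid chain. The windows are chr3:98859795-98860044 for Hsd3b1 and chr3:98814444-98814693 for Hsd3b6, both read on the minus strand, and capitals mark the letters CCAAT on the strand shown.
Hsd3b1: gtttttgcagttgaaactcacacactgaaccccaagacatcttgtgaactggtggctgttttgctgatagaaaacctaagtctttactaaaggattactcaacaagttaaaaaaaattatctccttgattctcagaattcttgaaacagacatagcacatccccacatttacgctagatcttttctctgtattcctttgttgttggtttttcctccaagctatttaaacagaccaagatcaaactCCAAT
Hsd3b6: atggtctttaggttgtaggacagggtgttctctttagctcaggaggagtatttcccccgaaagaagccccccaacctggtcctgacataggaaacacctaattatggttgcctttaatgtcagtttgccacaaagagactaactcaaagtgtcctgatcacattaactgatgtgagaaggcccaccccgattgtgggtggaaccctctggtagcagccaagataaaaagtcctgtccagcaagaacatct
Aligned, these windows were identical at 136 of 213 aligned bases (63.8%). CCAAT, searched on both strands, occurred in the Hsd3b1 window and not in the Hsd3b6 window, and 39.2% of the 14455 tested genes with such a window held it. The steroidogenic factor 1 site AAGGTCA, searched on both strands, was in 0 of 14 windows of the Leydig list and in 4.12% of all windows.

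Hsd3b1 stood at 331, 332, 347 and 322 CPM in NZO/HlLtJ, against 61.1, 67.2, 59.8 and 55.2 CPM in C57BL/6J. Hsd3b6 stood at 3.59, 3.01, 4.68 and 3.51 CPM in NZO/HlLtJ, against 90.8, 80.5, 52.6 and 93.7 CPM in C57BL/6J. For each gene the strains did not overlap, as was so for 45.8% of all genes tested. The log2 fold change was 2.45 ± 0.08 for Hsd3b1 (edgeR adjusted p = 1.47e-19), 5.48-fold higher, and -4.43 ± 0.19 for Hsd3b6 (edgeR adjusted p = 4.56e-17), 21.6-fold lower. Summed, the pair gave 337 ± 10.8 CPM in NZO/HlLtJ testes, against 140.2 ± 18.6 CPM in C57BL/6J testes (SD, n = 4 each). Their longest transcripts were identical at 82.2% of aligned bases, and no source used here says how reads shared by both were counted.

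The other steps of the chain did not move as a block. Lhcgr, the luteinizing hormone receptor, had 30.4, 25, 23.5 and 22 CPM in NZO/HlLtJ, against 8.22, 6.17, 7.37 and 7.72 CPM in C57BL/6J (log2 fold change 1.77 ± 0.13). Hsd17b3, which makes testosterone from androstenedione, had 62.8, 60.8, 54.2 and 58.3 CPM in NZO/HlLtJ, against 19.1, 19.1, 18.2 and 18.3 CPM in C57BL/6J (1.66 ± 0.10). Cyp17a1, which makes androstenedione, had 555, 484, 491 and 423 CPM in NZO/HlLtJ, against 260.2, 186, 288 and 268 CPM in C57BL/6J (0.96 ± 0.13). In all of these the lowest NZO/HlLtJ library lay above the highest C57BL/6J library, and 45.8% of all genes tested likewise did not overlap. The mitochondrial entry of the chain differed. Cyp11a1, which cleaves the cholesterol side chain, was lower, with 95.4, 53.8, 63 and 60.7 CPM in NZO/HlLtJ, against 103, 77.7, 100.2 and 106 CPM in C57BL/6J (-0.50 ± 0.16, edgeR adjusted p = 0.0125), and the groups overlapped. Star, the cholesterol importer, was not called, with 87.7, 73.6, 50 and 44.7 CPM in NZO/HlLtJ, against 105, 47.5, 88.6 and 105 CPM in C57BL/6J (-0.43 ± 0.26, edgeR adjusted p = 0.174). Without C57BL/6J replicate 2, Star was called lower (adjusted p = 0.0432), and without NZO/HlLtJ replicate 2, Cyp11a1 was not called (adjusted p = 0.0596). Fdxr, the ferredoxin reductase that feeds electrons to Cyp11a1, was higher (1.08 ± 0.07). Insl3, a peptide hormone of Leydig cells, was higher by 0.45 ± 0.15 and lost its call without NZO/HlLtJ replicate 3, the library that stands apart (edgeR adjusted p = 0.125), and by DESeq2 (adjusted p = 0.0598). Lhcgr, Cyp17a1, Cyp11a1, Star and Insl3 were chosen after their values were seen.

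Over the list of Leydig cell and testosterone genes, 13 of 20 were higher and 3 lower, where 25.3% and 24.1% of all genes tested were higher and lower. The same shares over all genes stand beside every list below. The median log2 fold change of the Leydig list was 0.43, against 0.01 over all genes. The genes that fell were Hsd3b6, Cyp11a1 and Scarb1, the receptor that takes up cholesterol from high-density lipoprotein. The summed level of the list was 1938, 1765, 1813 and 1624 CPM in NZO/HlLtJ, against 1210, 989.5, 1128 and 1184 CPM in C57BL/6J. In bulk tissue, more cells of a type and more RNA per cell cannot be told apart. On 10% fat, 11 of the 20 were higher and 3 lower, where 21.9% and 20.9% of all genes tested were. The plot of single genes shows these levels library by library.

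**Figure D1:**
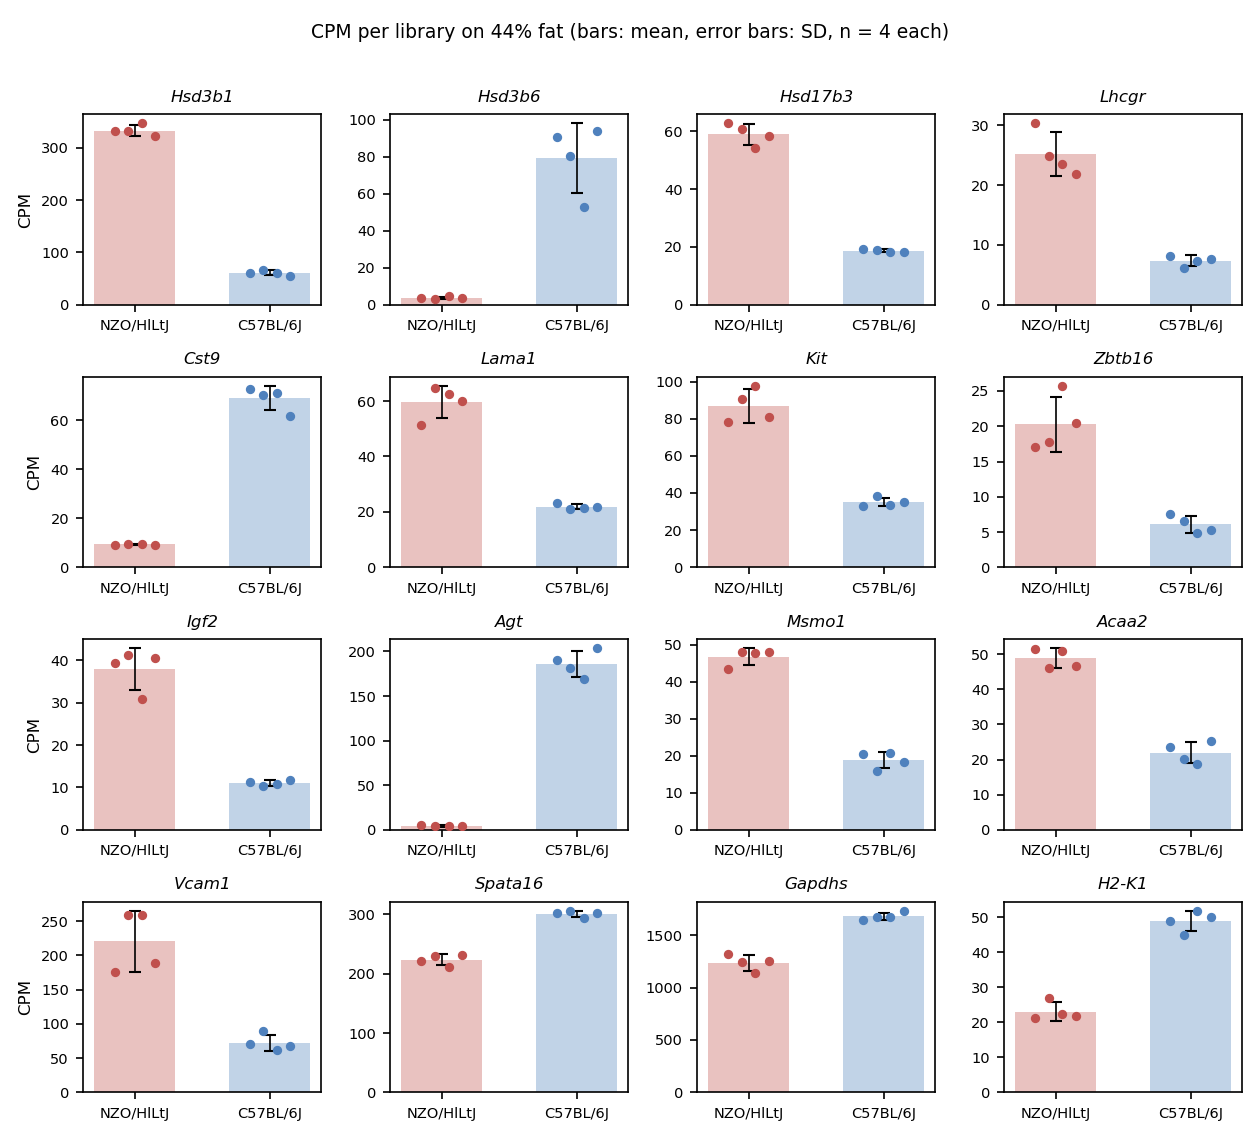
CPM of 16 genes in each of the 4 NZO/HlLtJ and the 4 C57BL/6J libraries on 44% fat, 1 panel a gene; points are libraries, bars are means and error bars are SD. Hsd3b1, Hsd17b3 and Lhcgr lie higher in every NZO/HlLtJ library, and Hsd3b6, Cst9 and Agt lie lower in every NZO/HlLtJ library. Of all genes tested, 45.8% did not overlap between the strains.

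Genes of cholesterol synthesis and sterol regulation were mostly higher. Cells make cholesterol through the mevalonate pathway under the control of the SREBP factors, and in Leydig cells it is also the raw material of testosterone. Of 31 genes tested, 21 were higher and 3 lower, with a median of 0.47, and on 10% fat 22 were higher and 4 lower. Windows of Hmgcs1, whose enzyme makes the HMG-CoA from which mevalonate is formed, and of Msmo1, an oxidase of late sterol synthesis, are shown, because their 250 bases hold the sterol element and the CCAAT boxes searched for in the list. They lie at chr13:119690101-119690350 on the plus strand and chr8:64733579-64733828 on the minus strand of GRCm38.p6 (RefSeq). Capitals mark TCACCCCAC in Hmgcs1 and CCAAT in Msmo1 on the strand shown.
Hmgcs1: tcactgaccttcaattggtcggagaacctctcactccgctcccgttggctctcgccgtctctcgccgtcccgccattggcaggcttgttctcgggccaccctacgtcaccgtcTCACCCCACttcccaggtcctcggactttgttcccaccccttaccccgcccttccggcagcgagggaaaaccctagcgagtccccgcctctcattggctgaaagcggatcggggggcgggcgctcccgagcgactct
Msmo1: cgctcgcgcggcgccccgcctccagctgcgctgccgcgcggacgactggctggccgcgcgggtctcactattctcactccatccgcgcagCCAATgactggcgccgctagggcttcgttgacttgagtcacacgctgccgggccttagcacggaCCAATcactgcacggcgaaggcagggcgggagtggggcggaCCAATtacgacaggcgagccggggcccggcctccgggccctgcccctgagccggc
The sterol element core TCACNCCAC, searched on both strands, was found in 1 of 22 windows of the list, that of Hmgcs1, and in 1.25% of all windows. CCAAT was found in 19 of the 22 (86.4%), against 39.2% of all windows. It was in 12 of the 15 windows of sterol genes that were higher and in 7 of the 7 windows of those that were not, so these letters did not separate the genes that rose.

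Msmo1 had 43.6, 48.2, 47.7 and 48 CPM in NZO/HlLtJ, against 20.6, 16, 20.8 and 18.4 CPM in C57BL/6J (log2 fold change 1.31 ± 0.16). Stard4, which carries cholesterol through the cytosol, had 23, 26.9, 26.7 and 24.2 CPM in NZO/HlLtJ, against 12.4, 9.01, 10.6 and 8.94 CPM in C57BL/6J (1.30 ± 0.10). Both were higher in every NZO/HlLtJ library than in any C57BL/6J library, and 45.8% of all genes tested likewise did not overlap. Nsdhl and Hsd17b7, enzymes that act after squalene, were higher by 0.78 ± 0.10 and 1.12 ± 0.15. Hmgcs1 was higher by 0.45 ± 0.06 and Fdps by 0.43 ± 0.05. The genes that fell were Idi1 (-0.44), Pmvk (-0.34) and Fdft1 (-0.25), which stand between mevalonate and squalene, as does Fdps, which was higher. Genes of this paragraph other than Msmo1, Stard4, Nsdhl and Fdps were chosen after their values were seen.

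Sertoli cell genes were mostly higher, with 1 exception of large size. Of 25 genes, 19 were higher and 1 lower, with a median of 0.40. Their summed level was 1745, 1784, 2134 and 1749 CPM in NZO/HlLtJ, against 1594, 1572, 1539.6 and 1488 CPM in C57BL/6J. NZO/HlLtJ replicate 3 was the highest, and without it 15 were higher and 1 lower, with a median of 0.29. Fshr, the receptor for follicle-stimulating hormone, had 4.4, 5.16, 5.21 and 4.68 CPM in NZO/HlLtJ, against 1.29, 1.67, 1.86 and 1.77 CPM in C57BL/6J (1.56 ± 0.16). Inha, a subunit of the inhibin hormone that restrains that signal, had 62.8, 66.6, 75.6 and 60 CPM in NZO/HlLtJ, against 40.5, 34.7, 36.5 and 38.6 CPM in C57BL/6J (0.82 ± 0.08). Dmrt1, a factor that maintains Sertoli identity and is also made in germ cells, was higher by 0.45 ± 0.06. The exception was Cst9, a cystatin of Sertoli cells, with 9.27, 9.46, 9.45 and 9.14 CPM in NZO/HlLtJ, against 72.7, 70.3, 71.3 and 61.7 CPM in C57BL/6J (-2.89 ± 0.08, edgeR adjusted p = 2.09e-21), 7.39-fold lower. Its 4 NZO/HlLtJ libraries lay within 1 CPM of each other.

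Blood-testis barrier and junction genes were higher in 13 of 17 and lower in 0, with a median of 0.51. Lama1, a laminin chain of the tubule's basement membrane, had 51.5, 64.7, 62.6 and 60 CPM in NZO/HlLtJ, against 23.1, 21.2, 21.6 and 21.6 CPM in C57BL/6J (1.45 ± 0.07). Gja1, the connexin of Sertoli cell gap junctions, had 87.3, 101, 92.9 and 94.3 CPM in NZO/HlLtJ, against 57.4, 51.3, 53.4 and 55.1 CPM in C57BL/6J (0.79 ± 0.06). F11r, a junctional adhesion molecule, was higher by 1.02 ± 0.08 and the laminin gene Lamc1 by 0.86 ± 0.08. For these 4 genes the strains did not overlap, as was so for 45.8% of all genes tested. Peritubular myoid genes, of the contractile layer around the tubule, were higher in 8 of 12 and lower in 1. Among them Ptch1, the hedgehog receptor, was higher by 0.76 ± 0.10 and Tpm2, a tropomyosin, by 0.99 ± 0.15, while the enteric actin gene Actg2 fell by 0.36. Collagen and other matrix genes were higher in 18 of 27 and lower in 3, with a median of 0.40. Col1a1, Col1a2 and Col3a1, the fibrillar collagens, were higher by 0.58, 0.66 and 0.74, and were chosen after their values were seen. Dcn, the proteoglycan decorin, was higher by 0.85 ± 0.09, and Loxl1, a collagen cross-linker, fell by 0.74. On 10% fat the matrix list had 11 higher and 3 lower.

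Germ cell lists ran from higher in spermatogonia to lower in spermatids. Spermatogonia divide on the basement membrane and supply all later stages. Of 17 genes of undifferentiated spermatogonia, 9 were higher and 3 lower, with a median of 0.43. Zbtb16, a factor that keeps spermatogonia undifferentiated, had 17, 17.8, 25.7 and 20.5 CPM in NZO/HlLtJ, against 7.51, 6.55, 4.9 and 5.34 CPM in C57BL/6J (1.73 ± 0.18). Ret, the receptor for the stem cell factor GDNF, had 5.78, 5.75, 6.22 and 5.15 CPM in NZO/HlLtJ, against 1.21, 1.43, 0.914 and 1.31 CPM in C57BL/6J (2.23 ± 0.15). Sall4 was higher by 1.40 ± 0.12 and Lin28a, an RNA-binding protein of progenitors, by 1.23 ± 0.11. These 4 did not overlap between strains, as was so for 45.8% of all genes tested. Gfra1, the co-receptor of Ret, had -0.07 and was not called, and Id4 (-0.23), Bcl6b (-0.42) and Eomes (-2.71) were lower. These 4 genes, members of the same list, were chosen after their values were seen.

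Kit, the receptor that marks differentiating spermatogonia and is also made in Leydig cells, had 78.2, 90.5, 97.7 and 81 CPM in NZO/HlLtJ, against 33.2, 38.1, 33.7 and 35 CPM in C57BL/6J (1.31 ± 0.08). Stra8, the retinoic acid target that opens meiosis, was higher by 0.59 ± 0.11. Of the 10 genes of differentiating spermatogonia, 5 were higher and 2 lower, and without NZO/HlLtJ replicate 3, 3 were higher and 1 lower. Their summed level overlapped between the strains, at 739 to 755 CPM in NZO/HlLtJ, against 720 to 746 CPM in C57BL/6J. Without Dmrtb1, the most abundant member, it was 283 to 312 CPM in NZO/HlLtJ, against 235 to 251 CPM in C57BL/6J. Meiotic genes were mixed. Of 30, 3 were higher and 11 lower, with a median of -0.03. Meiob, needed for repair of meiotic breaks, had 22.3, 23.9, 25.8 and 23.8 CPM in NZO/HlLtJ, against 13.5, 13, 13.7 and 14.8 CPM in C57BL/6J (0.80 ± 0.08). Rec8, the meiotic cohesin, had 48.6, 41.9, 44.3 and 42.7 CPM in NZO/HlLtJ, against 62.8, 71.3, 72.1 and 76.2 CPM in C57BL/6J (-0.67 ± 0.06). Dnmt3l, a cofactor of DNA methylation in germ cells, fell by 0.95. The piRNA pathway, which silences transposons in germ cells, had 2 of 22 genes higher and 12 lower, with a median of -0.11. The higher genes were Piwil4, the nuclear PIWI protein, at 1.69 ± 0.24 and Tdrd12 at 0.36 ± 0.04.

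Spermatid transcripts were lower by small and even margins. Of 21 genes of round spermatids, 0 were higher and 18 lower, with a median of -0.30. Of 18 genes of elongating spermatids, 0 were higher and 15 lower, with a median of -0.29. Among all 4681 genes of at least 50 CPM in the higher strain, 868 were higher and 2126 lower. Abundant genes at large were thus also more often lower. The part of abundance in these lists, and in the isozyme and flagellum lists below, was not tested. The summed level of the round list was 5898, 5854, 5715 and 5857 CPM in NZO/HlLtJ, against 7309.8, 7123, 6894 and 7085 CPM in C57BL/6J. That of the elongating list was 16589, 15748, 14412 and 15908 CPM in NZO/HlLtJ, against 19163, 19396, 19042 and 19257 CPM in C57BL/6J. In neither list did the strains overlap. NZO/HlLtJ replicate 3 was the lowest in both, and without it 17 round spermatid genes were lower and 0 higher. Log2 fold changes of single genes in the 2 lists lay between -0.63 and -0.05, a narrower range than in any somatic list above.

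Spata16, needed for the acrosome, had 222, 229.9, 211 and 232 CPM in NZO/HlLtJ, against 302, 305, 294 and 303 CPM in C57BL/6J (-0.43 ± 0.04). Catsper3, a subunit of the sperm calcium channel, had 50.7, 45.5, 45 and 46.6 CPM in NZO/HlLtJ, against 60.6, 69, 70.9 and 63 CPM in C57BL/6J (-0.49 ± 0.06). Gapdhs, the sperm form of a glycolytic enzyme, had 1319.5, 1244, 1135 and 1254 CPM in NZO/HlLtJ, against 1644, 1673, 1668 and 1730.0 CPM in C57BL/6J (-0.44 ± 0.06). Each of these was lower in all 4 NZO/HlLtJ libraries than in any C57BL/6J library, and 45.8% of all genes tested likewise did not overlap. Genes for germ cell isozymes of energy metabolism were lower in 14 of 20 and higher in 0, with a median of -0.24, among them the aldolase genes Aldoart1 (-0.54 ± 0.06) and Aldoart2 (-0.36 ± 0.05). The flagellum list, of the sperm tail and its motor, had 18 of 25 lower and 1 higher, with a median of -0.20. The dynein heavy chain gene Dnah5 fell by 1.26 and Slc9c1, the sperm sodium-proton exchanger, by 0.52. The exception was Rsph1, of the radial spoke, with 1404, 1556, 1415 and 1516 CPM in NZO/HlLtJ, against 794, 778, 838 and 765 CPM in C57BL/6J (0.89 ± 0.05). On 10% fat, 13 round and 11 elongating spermatid genes were lower and 0 of either list higher.

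**Figure D2:**
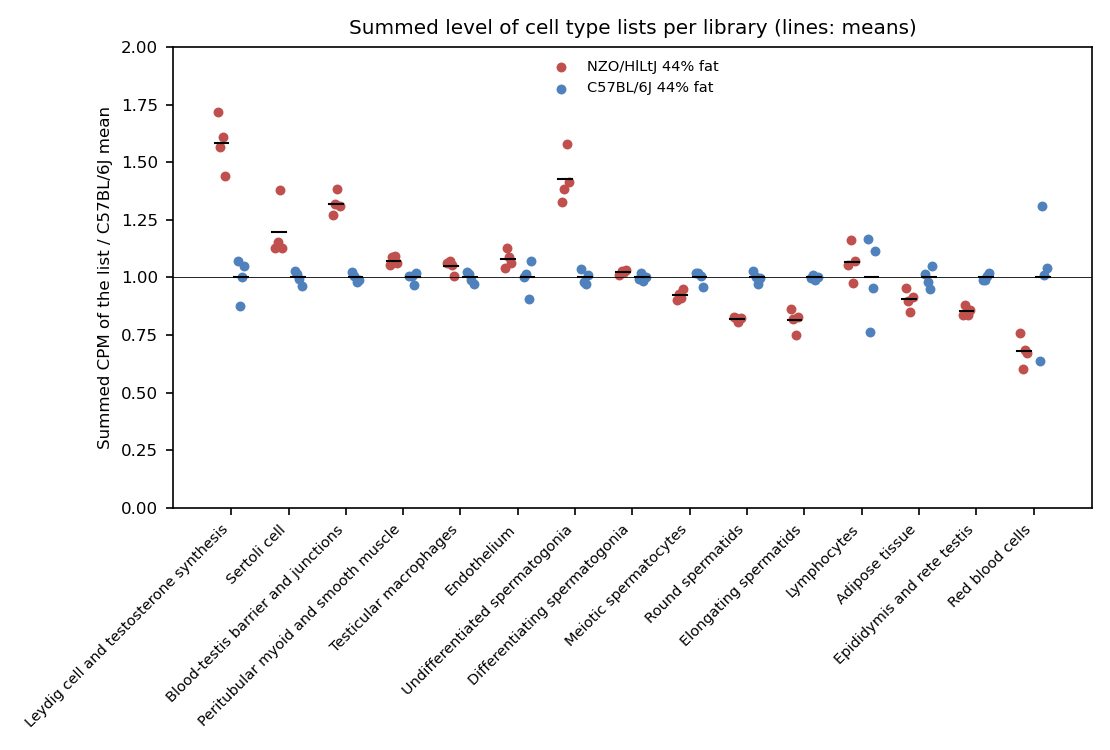
Summed CPM of the members of each list of cell type and tissue markers in every library on 44% fat, divided by the mean of the 4 C57BL/6J libraries, so that 1 is that mean; points are libraries. Leydig and undifferentiated spermatogonia lists lie above 1 in the 4 NZO/HlLtJ libraries, and both spermatid lists lie below 1. The differentiating spermatogonia list lies close to 1 in both strains, which overlap.

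Markers of neighbouring tissues showed small amounts in both strains. Of 12 adipose genes, 0 were higher and 3 lower, and the summed level was 388 to 437 CPM in NZO/HlLtJ, against 435 to 481 CPM in C57BL/6J. Nearly all of that sum was Lipe, the hormone-sensitive lipase, which testis cells also make, with 379 to 427 CPM in NZO/HlLtJ, against 421 to 453 CPM in C57BL/6J. The other 11 genes summed to 8.97 to 15.4 CPM in NZO/HlLtJ, against 13.5 to 27.8 CPM in C57BL/6J. Adipoq, the defining adipokine, lay between 3.22 and 4.62 CPM in NZO/HlLtJ, against 3.92 to 4.67 CPM in C57BL/6J. The genes that fell were Cfd (-3.25 ± 1.04), Thrsp (-1.52 ± 0.28) and Pparg (-0.61 ± 0.18). Of 9 genes of epididymis and rete testis, 1 was higher and 3 lower, with a summed level of 86.5 to 91.2 CPM in NZO/HlLtJ, against 102 to 105 CPM in C57BL/6J, and without the aquaporin gene Aqp9 they summed to 11.9 to 14.2 CPM in NZO/HlLtJ, against 14.7 to 17.7 CPM in C57BL/6J. Red cell genes summed to 38.6 to 48.6 CPM in NZO/HlLtJ, against 40.8 to 83.9 CPM in C57BL/6J. Of 8 lymphocyte genes, 1 was higher and 1 lower. Immediate early genes, which respond to handling, were higher in 8 of 19 and lower in 3, with a median of 0.44, which was 0.27 without NZO/HlLtJ replicate 3. Their summed level lay the other way, at 239 to 283 CPM in NZO/HlLtJ, against 292 to 314 CPM in C57BL/6J, and without Klf4, the most abundant member, it was 133 to 168 CPM in NZO/HlLtJ, against 138 to 163 CPM in C57BL/6J. The part of these tissues and of handling in the other lists was not tested.

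Macrophages of the testis sit beside Leydig cells. Of 20 macrophage genes, 7 were higher and 2 lower, with a median of 0.37. Csf1r, the receptor they need to survive, had 21.2, 19.6, 20 and 18.8 CPM in NZO/HlLtJ, against 12.2, 10.8, 11.1 and 12.4 CPM in C57BL/6J (0.78 ± 0.11), and Lyz2, a lysozyme, was higher by 0.63 ± 0.13. The largest change ran the other way: Cd5l, a secreted macrophage protein, had 0.027, 0.21, 0.0888 and 0.111 CPM in NZO/HlLtJ, against 5.04, 4.97, 7.23 and 5.95 CPM in C57BL/6J (-5.64 ± 0.32). The summed level of the list was 340.3 to 362 CPM in NZO/HlLtJ, against 329 to 347 CPM in C57BL/6J. More than any other member, Aif1, a calcium-binding protein listed as a macrophage marker, set that sum. It had 174 to 199.9 CPM in NZO/HlLtJ, against 205 to 222 CPM in C57BL/6J. Which cells of the testis made it was not tested. The other 19 genes summed to 146 to 183 CPM in NZO/HlLtJ, against 121 to 127 CPM in C57BL/6J, and on that sum the strains did not overlap. Endothelial genes were higher in 5 of 14 (35.7%) and lower in 2 (14.3%), against 25.3% and 24.1% of all genes. Among them Eng was at 0.65 ± 0.12 and Kdr, the VEGF receptor, at 0.51 ± 0.14, while Vwf fell by 0.39.

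Immune signalling genes were compared next. Of 31 interferon response genes, 12 were higher (38.7%) and 2 lower, with a median of 0.39, which was 0.25 without NZO/HlLtJ replicate 2. On the deposited variance-stabilised log2 values 12 were higher and 3 lower, with a median of 0.07. That scale, with a lowest value of 7.67, shrinks differences of low-count genes, so its median is not comparable in size. Bst2, which tethers viruses to the cell, had 3.27, 3.81, 3.94 and 4.26 CPM in NZO/HlLtJ, against 1.18, 1.49, 1.5 and 1.92 CPM in C57BL/6J (1.33 ± 0.20). Irf1, a transcription factor of the response, was higher by 0.90 ± 0.16. Inflammatory genes were higher in 6 of 20 (30.0%) and lower in 1, where 25.3% of all genes were higher, and without NZO/HlLtJ replicate 3, 4 were higher, so their share lay near that of all genes. Vcam1, an adhesion molecule, had 176, 258, 259 and 189 CPM in NZO/HlLtJ, against 71.1, 89.6, 61.5 and 67.1 CPM in C57BL/6J (1.61 ± 0.13), and Il1r1, the interleukin-1 receptor, was higher by 1.33 ± 0.13. Nfkb2 was higher by 0.57 ± 0.19, and without NZO/HlLtJ replicate 3 it was not called (adjusted p = 0.0866). The genes Tnf, Il6 and Ccl2 fell below the filter on low counts and gave no test.

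Antigen presentation genes differed in direction between loci. Of 22, 7 were higher (31.8%) and 3 lower (13.6%), where 25.3% and 24.1% of all genes were. H2-K1, a classical class I gene, had 21.1, 27, 22.3 and 21.8 CPM in NZO/HlLtJ, against 48.9, 45.1, 51.7 and 50.1 CPM in C57BL/6J (-1.08 ± 0.09). H2-D1, the other classical class I gene of the reference genome, had 26.5, 36.3, 28 and 27.8 CPM in NZO/HlLtJ, against 15.3, 14.3, 16.9 and 17.5 CPM in C57BL/6J (0.89 ± 0.11). H2-Q7 fell by 2.02 and the class II gene H2-Ab1 fell by 0.99, while Tap2, of the peptide transporter, was higher by 1.18 ± 0.17. These genes vary between strains, and how reads with strain variants were counted is not known from the sources used here. Without NZO/HlLtJ replicate 2, which had the highest H2-D1, 5 genes of the list were higher and 5 lower.

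Energy and growth signalling were compared because NZO/HlLtJ mice are known for insulin resistance. Of 34 genes of fatty acid uptake, synthesis and lipid droplets, 17 were higher and 9 lower, with a median of 0.26. Fabp3, a fatty acid carrier, had 189.6, 234, 192 and 180.2 CPM in NZO/HlLtJ, against 81.2, 84.5, 78.9 and 81.7 CPM in C57BL/6J (1.29 ± 0.10). The synthesis genes Acly, Elovl5 and Scd2 were higher by 0.58 ± 0.07, 0.73 ± 0.06 and 0.75 ± 0.07. Of 30 genes of fatty acid oxidation, 15 were higher and 4 lower, with a median of 0.36. Acaa2, the thiolase that ends each turn of the oxidation spiral, had 51.5, 46, 50.9 and 46.7 CPM in NZO/HlLtJ, against 23.6, 20.2, 18.9 and 25.3 CPM in C57BL/6J (1.15 ± 0.09), and Acadm, a dehydrogenase that opens it, was higher by 0.83 ± 0.06. For Fabp3 and Acaa2 the strains did not overlap, as was so for 45.8% of all genes tested.

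Insulin, PI3K and mTOR genes were higher in 17 of 28 and lower in 3, but by small margins, with a median of 0.16. Without NZO/HlLtJ replicate 3, 12 were higher. Mtor was higher by 0.59 ± 0.03, the transcription factor genes Foxo1 and Foxo3 by 0.78 ± 0.09 and 0.64 ± 0.07, and Inppl1, a lipid phosphatase, by 0.58 ± 0.07. Insr, the insulin receptor, had -0.01 and was not called. The insulin-like growth factors were a list of their own. Igf2 had 39.4, 41.2, 30.8 and 40.5 CPM in NZO/HlLtJ, against 11.2, 10.2, 10.9 and 11.8 CPM in C57BL/6J (1.78 ± 0.10) and its signalling receptor gene Igf1r had 65.5, 63.8, 69.7 and 59.4 CPM in NZO/HlLtJ, against 42.3, 34.5, 37 and 34.4 CPM in C57BL/6J (0.80 ± 0.09). Of 12 genes of this family, 6 were higher and 1 lower, with Igf1 at 0.78 ± 0.13 and the binding protein gene Igfbp2 at 0.96 ± 0.12. Metabolic hormone receptors were higher in 9 of 23 and lower in 2, among them the estrogen receptor gene Esr1 at 1.21 ± 0.09 and the thyroid hormone receptor genes Thra at 0.68 ± 0.09 and Thrb at 1.41 ± 0.14. The leptin receptor gene Lepr had 0.14 and was not called. Insr and Lepr were chosen after their values were seen.

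Somatic forms of glycolysis genes were mixed, with 9 of 25 higher and 6 lower and a median of 0.06. Aldoc was higher by 1.38 ± 0.13, Gapdh, which has many processed copies in the genome, by 1.00 ± 0.13 and Pfkl by 0.80 ± 0.10, while the germ cell isozymes above were lower. Redox genes were higher in 16 of 34 and lower in 7, with Gsta4 and Gsr, of glutathione use and recycling, at 0.87 ± 0.08 and 0.56 ± 0.06 and the peroxiredoxin gene Prdx4 at -0.42 ± 0.05. Nnt, the mitochondrial transhydrogenase, carries a known deletion of several exons in C57BL/6J. It had 56.1, 57.7, 54 and 53 CPM in NZO/HlLtJ, against 62.7, 59.1, 59.8 and 59.4 CPM in C57BL/6J (-0.13 ± 0.05, edgeR adjusted p = 0.0277), so the count over the whole gene did not separate the strains by the deletion, and the call was lost in 3 of 8 fits that left out 1 library. Genes of endoplasmic reticulum stress and of amino acid stress, in 1 list, were higher in 10 of 26 (38.5%) and lower in 6 (23.1%), against 25.3% and 24.1% of all genes. Without replicate 2 of either strain 3 were lower. The sensor genes Eif2ak3, Atf6 and Eif2ak4 were higher by 1.13 ± 0.11, 0.75 ± 0.06 and 0.73 ± 0.08. Nuclear genes of oxidative phosphorylation had 4 of 35 higher and 6 lower, with a median of -0.02, the smallest share called among the pathway lists. Over the fits that left out 1 library, 2 to 5 were higher and 2 to 6 lower in that list. Mitochondrially encoded transcripts had 3 of 13 higher and 3 lower (23.1% each), near the shares of all genes. Clock genes were higher in 10 of 20 and lower in 2, led by Rorb at 3.23 ± 0.44, with 1.05, 1.03, 0.888 and 1.45 CPM in NZO/HlLtJ, against 0.164, 0.0585, 0.206 and 0.029 CPM in C57BL/6J.

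The renin-angiotensin system held the next of the large opposed pairs. Angiotensinogen is cut by renin, and angiotensin-converting enzyme, which has a form made in sperm, acts on the product. Agt, which encodes angiotensinogen, had 5.65, 3.85, 4.56 and 4.04 CPM in NZO/HlLtJ, against 190.3, 182, 169 and 203 CPM in C57BL/6J. The log2 fold change was -5.37 ± 0.13 (edgeR adjusted p = 1.06e-22), 41.2-fold lower. Ren1, which encodes renin, had 2.24, 3.11, 1.98 and 1.84 CPM in NZO/HlLtJ, against 0.63, 0.526, 0.59 and 0.551 CPM in C57BL/6J (2.00 ± 0.26). In both genes the strains were far apart, in opposite directions. Ace3 fell by 0.39 and Atp6ap2, the prorenin receptor gene, was higher by 0.52 ± 0.08. Of 13 genes, 4 were higher (30.8%) and 5 lower (38.5%), against 25.3% and 24.1% of all genes. The median of 0.02 changed sign in 6 of 17 settings.

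**Figure D3:**
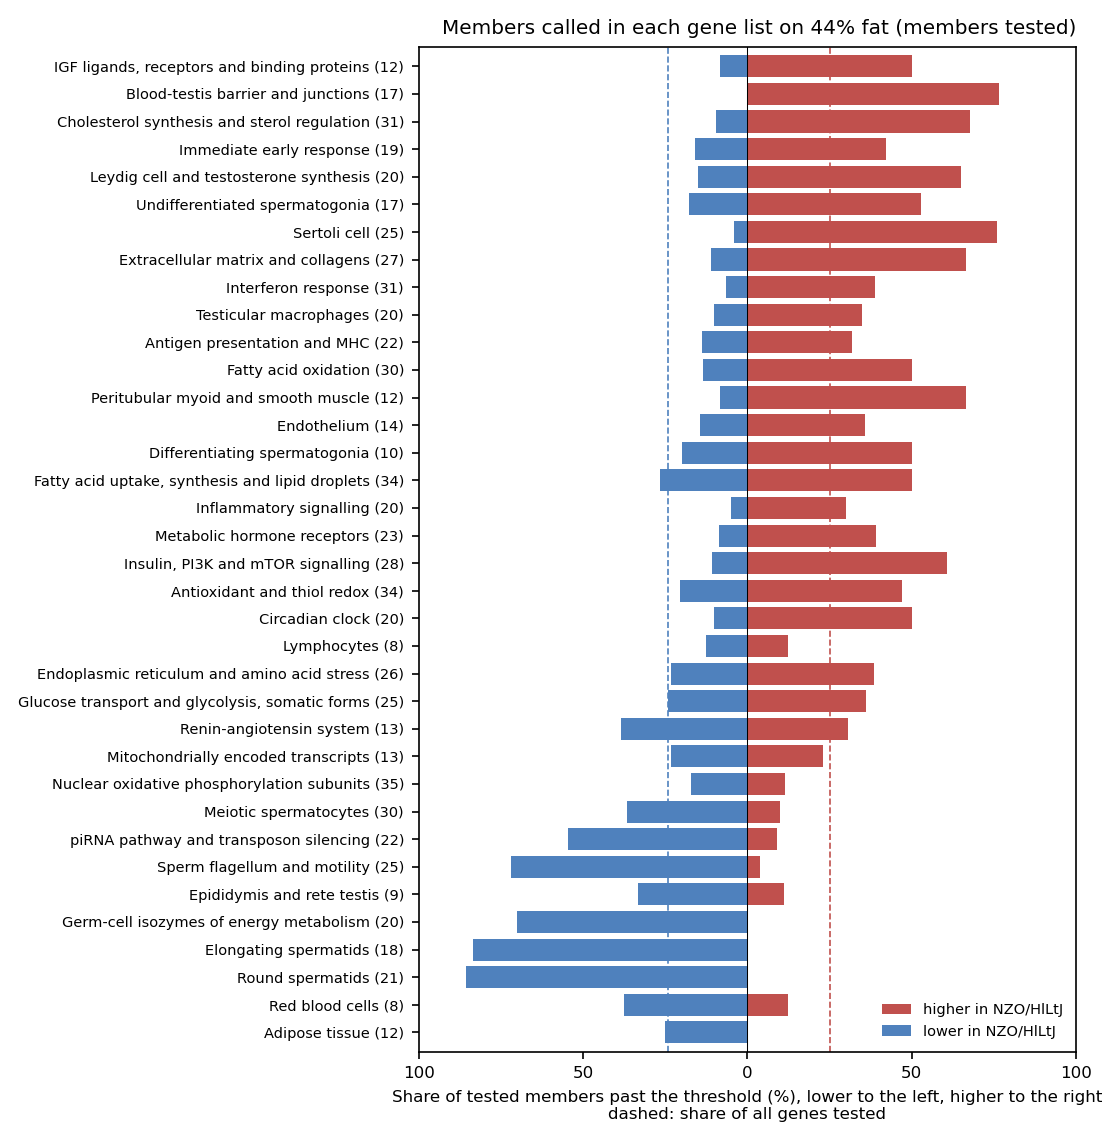
Share of the tested members of each of 36 gene lists called higher (to the right) and lower (to the left) in NZO/HlLtJ than in C57BL/6J on 44% fat, in percent; dashed lines mark the shares over all genes, 25.3% and 24.1%. Junction, Sertoli and sterol lists reach furthest right, and spermatid, flagellum and germ cell isozyme lists reach furthest left.

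Over all genes, 11299 of 22873 were called (49.4%), 5783 higher and 5516 lower. The balance of the directions turned with the scaling: the size factors of DESeq2 in the same fit gave 5302 higher and 6080 lower, DESeq2 5344 higher and 6137 lower, and limma on the deposited log2 values 5377 higher and 6150 lower. Most differences were small: the median size of a called log2 fold change was 0.49, and 6576 called genes (58.2%) differed by less than 1.5-fold. The 4 and 4 libraries did not overlap for 10480 genes (45.8%). At least 8-fold higher were 157 genes (0.686%) and at least 8-fold lower 333 (1.46%). Of these 490 genes, 325 (66.3%) carried predicted or clone names, against 29.0% of all genes tested, and 457 were called in the same direction on 10% fat. How reads with strain variants were counted is not known from the sources used here. Its part in these counts and in the large single-gene changes below was not tested.

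The abundant genes with the largest changes, of at least 50 CPM in the higher strain, came from many processes. Lower in NZO/HlLtJ, Galntl6, of the family that starts O-linked sugar chains, had 0.567, 0.42, 0.178 and 0.306 CPM in NZO/HlLtJ, against 94, 94.1, 98.3 and 87.1 CPM in C57BL/6J, 247-fold lower. Adam26a, a testis protein of the ADAM family, had 0.757, 0.561, 0.178 and 0.39 CPM in NZO/HlLtJ, against 69.9, 76.8, 87.6 and 65.9 CPM in C57BL/6J, while its neighbour Adam26b had a log2 fold change of -0.28 ± 0.11. In Galntl6 and Adam26a every NZO/HlLtJ library lay below 1 CPM. The summed level of the Adam26 pair was 15.1 ± 1.5 CPM in NZO/HlLtJ testes, against 92.8 ± 12.3 CPM in C57BL/6J testes (SD, n = 4 each). Rsph3a and Rsph3b, radial spoke genes whose transcripts were 99.2% identical, fell by 1.93 and 1.57, and together they reached 182 ± 7.8 CPM in NZO/HlLtJ testes, against 618 ± 21.5 CPM in C57BL/6J testes (SD, n = 4 each). Both copies of that pair were lower. Mxra8, a cell surface protein, fell by 1.75 and Abhd14a by 1.95. Higher in NZO/HlLtJ, Aebp1, a secreted matrix protein, had 47.7, 58.7, 64.8 and 54.3 CPM in NZO/HlLtJ, against 9.73, 9.04, 8.67 and 10.7 CPM in C57BL/6J (2.56 ± 0.13). Nmnat3, a mitochondrial enzyme of NAD synthesis, had 164, 141, 142 and 137 CPM in NZO/HlLtJ, against 21.6, 28, 24.8 and 25.3 CPM in C57BL/6J (2.55 ± 0.07). Both were named under a rule that required no overlap between the strains. Apoe, the lipoprotein component, had 175, 163, 211 and 161 CPM in NZO/HlLtJ, against 61.9, 59.3, 60 and 67.2 CPM in C57BL/6J (1.51 ± 0.09), and C2, of the complement cascade, was higher by 1.50 ± 0.11. Sfi1, Dusp16 and Tmem176b were higher by 2.13 ± 0.11, 1.90 ± 0.05 and 1.48 ± 0.12.

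Less abundant genes also held large changes. Tnn, a tenascin of the matrix, had 17.1, 16.7, 15.8 and 16.1 CPM in NZO/HlLtJ, against 0.164, 0.0877, 0.0885 and 0.232 CPM in C57BL/6J (6.80 ± 0.22). Mog, known from myelin, and Styk1, a kinase, were higher by 6.65 ± 0.29 and 6.45 ± 0.18. Pnp2, a purine nucleoside phosphorylase, had 0 counts over the NZO/HlLtJ libraries and 1124 over the C57BL/6J libraries, at least 403-fold lower, while its copy Pnp, identical at 95.3% of aligned transcript bases, was not called (-0.04 ± 0.16). Itpr3os had 1 count in NZO/HlLtJ and 3781 in C57BL/6J, a ratio of 0.000246 with a 95% counting interval of 6.23e-06 to 0.00137. It lies opposite Itpr3, and no source used here says whether counting used strand. Vmn2r7, a vomeronasal receptor gene, had 1 count in NZO/HlLtJ and 2841 in C57BL/6J, a ratio of 0.000327 with an interval of 8.29e-06 to 0.00183.

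Several large changes belonged to near-identical copies, whose reads counting may have split. Hist2h2aa2 was at 77.9, 68.5, 70.4 and 76.2 CPM in NZO/HlLtJ, against 0.164, 0.0585, 0.118 and 0 CPM in C57BL/6J, while Hist2h2aa1, with an identical transcript, fell by 1.65, and the sum of both was 117 ± 7.96 CPM in NZO/HlLtJ testes, against 136 ± 10.9 CPM in C57BL/6J testes. Hba-a1 was higher by 6.37 ± 0.53 and Hba-a2 fell by 1.30, and these alpha globin genes summed to 14.5 ± 2.3 CPM in NZO/HlLtJ testes, against 23.4 ± 8.12 CPM in C57BL/6J testes. Eno1b, an enolase copy, fell by 4.10 beside Eno1 at 0.03 ± 0.06, with a joint level of 332 ± 17.6 CPM in NZO/HlLtJ testes and 375 ± 13 CPM in C57BL/6J testes. Fam205a1 fell by 3.16 and Fam205a4 was higher by 0.79 ± 0.08, and jointly they had 174 ± 11.1 CPM in NZO/HlLtJ testes and 173 ± 23.2 CPM in C57BL/6J testes. The summed levels of the alpha globin and Fam205a pairs overlapped between the strains, while those of the Hist2h2aa and enolase pairs were lower in every NZO/HlLtJ library than in any C57BL/6J library. Tagap1 and Tagap also differed when summed, at 32.4 ± 0.986 CPM in NZO/HlLtJ testes, against 74.4 ± 3.16 CPM in C57BL/6J testes, and so did Ccdc7a, higher by 1.80 ± 0.09, with its copy Ccdc7b, at 293 ± 14.2 CPM in NZO/HlLtJ testes and 202 ± 13.1 CPM in C57BL/6J testes (SD, n = 4 each in every pair). The Ccdc7 transcripts were identical at 88.1% of aligned bases, a lower share than in the other pairs of this paragraph. Single-gene folds of these pairs are uncertain.

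The X held more higher than lower genes. Of 984 X-linked genes tested, 371 (37.7%) were higher and 172 (17.5%) lower, with a median of 0.23, while of 21693 autosomal genes 5406 were higher and 5294 lower. On 10% fat, 307 X-linked genes were higher and 172 lower. Ddx3x, an RNA helicase, had 90, 88.8, 87 and 93.3 CPM in NZO/HlLtJ, against 60.3, 52.2, 48.1 and 49.5 CPM in C57BL/6J (0.77 ± 0.07). Atrx, a chromatin remodeller, had 54.6, 55.6, 62 and 55 CPM in NZO/HlLtJ, against 36.2, 31.2, 27.1 and 24.4 CPM in C57BL/6J (0.93 ± 0.11). Taf1, of the general transcription factor TFIID, and Ogt, which attaches O-GlcNAc to proteins, were higher by 0.90 ± 0.08 and 0.64 ± 0.07. The X is silenced in spermatocytes and many of its genes are made in somatic cells and spermatogonia. The part of these cells in the X-linked share was not tested. Outside all 36 gene lists, 361 of 965 X-linked genes were higher and 169 lower. The lists hold few X-linked genes, so this count could hardly differ and tests nothing about cell makeup. The Y held 181 tested genes, of which 3 were higher and 46 lower, and 43 of those 46 carried predicted or clone names. Of the 14 with official symbols, 2 were higher, Ddx3y by 0.77 ± 0.12 and Kdm5d by 0.54 ± 0.11, and 3 lower, Rbm31y by 0.53, Sly by 0.67 and Erdr1 by 1.04 on the log2 scale, while Eif2s3y, Uty, Usp9y, Zfy1 and Zfy2 were among the 9 not called. Chromosome 14 held 48 of the 333 genes at least 8-fold lower, 44 of them with predicted or clone names. In 5 windows of 2 Mb there, between 2 and 8 Mb and between 42 and 46 Mb, 46 genes differed at least 8-fold and 0 had an official symbol. The X-linked and Y-linked genes named here were chosen after their values were seen.

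**Figure D4:**
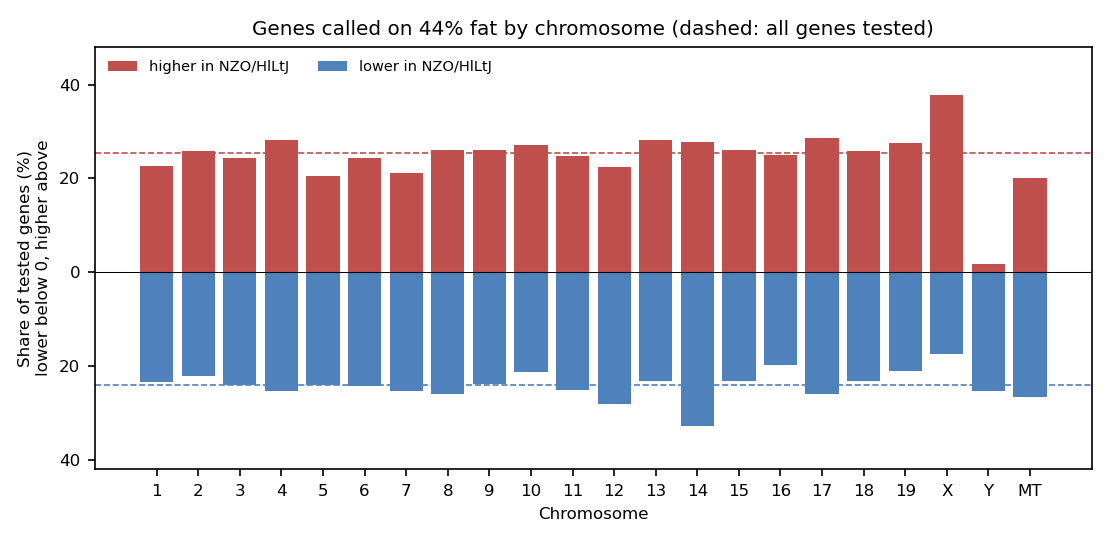
Share of tested genes called higher and lower in NZO/HlLtJ than in C57BL/6J on 44% fat, by chromosome, in percent. The X has 37.7% higher and 17.5% lower, the widest split towards higher, and the Y has 1.66% higher and 25.4% lower.

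The strain difference was measured again on 10% fat, in other animals. There 9805 genes were called (42.9%), 5018 higher (21.9%) and 4787 lower (20.9%). Called in the same direction on both diets were 8513 genes, 75.3% of the calls on 44% fat and 86.8% of those on 10% fat, and 4 were called in opposite directions. Of the genes called on 44% fat, 11151 (98.7%) had the same sign on 10% fat. Hsd3b1 had 2.39 ± 0.08 on 10% fat, Hsd3b6 -3.82 ± 0.18, Agt -5.65 ± 0.14, Cst9 -2.88 ± 0.08 and Zbtb16 1.42 ± 0.18, all on the log2 scale.

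Whether the strain difference itself depended on diet was tested as the difference between the 2 fold changes. By edgeR 0 genes passed the threshold (0.0%), and 926 (4.05%) had an unadjusted p under 0.05. DESeq2 called 3 genes and a fit to the 16 libraries of these strains called 1. In both of these Pakap passed. Leaving out 1 of the 16 libraries gave 0 or 1. Pakap, a gene that reads through its neighbours Palm2 and Akap2, had a strain difference of 0.53 ± 0.16 on 44% fat and -0.74 ± 0.17 on 10% fat, a difference of 1.27 ± 0.23 (edgeR adjusted p = 0.107; DESeq2 adjusted p = 0.00127). Its levels were 10.5, 7.61, 10.1 and 10.3 CPM in NZO/HlLtJ, against 7.56, 6.08, 6.49 and 6.53 CPM in C57BL/6J on 44% fat, and 3.81, 6.69, 6.24 and 5.68 CPM in NZO/HlLtJ, against 9.83, 10.3, 8.38 and 9 CPM in C57BL/6J on 10% fat. Reads of overlapping genes cannot be told apart from it. Slc38a2, an amino acid transporter, had 0.79 ± 0.09 on 44% fat and 0.26 ± 0.09 on 10% fat (unadjusted p = 0.000214, edgeR adjusted p = 0.814). Ifngr1, the interferon gamma receptor, had 0.54 ± 0.07 on 44% fat and 0.11 ± 0.07 on 10% fat. Zc3h12b had 1.07 ± 0.16 on 44% fat and 0.03 ± 0.16 on 10% fat, and neither difference passed the threshold. The median SE of a difference between diets was 0.17, against 0.12 for a strain difference on 44% fat, so a diet dependence of small size was not detectable here.

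**Figure D5:**
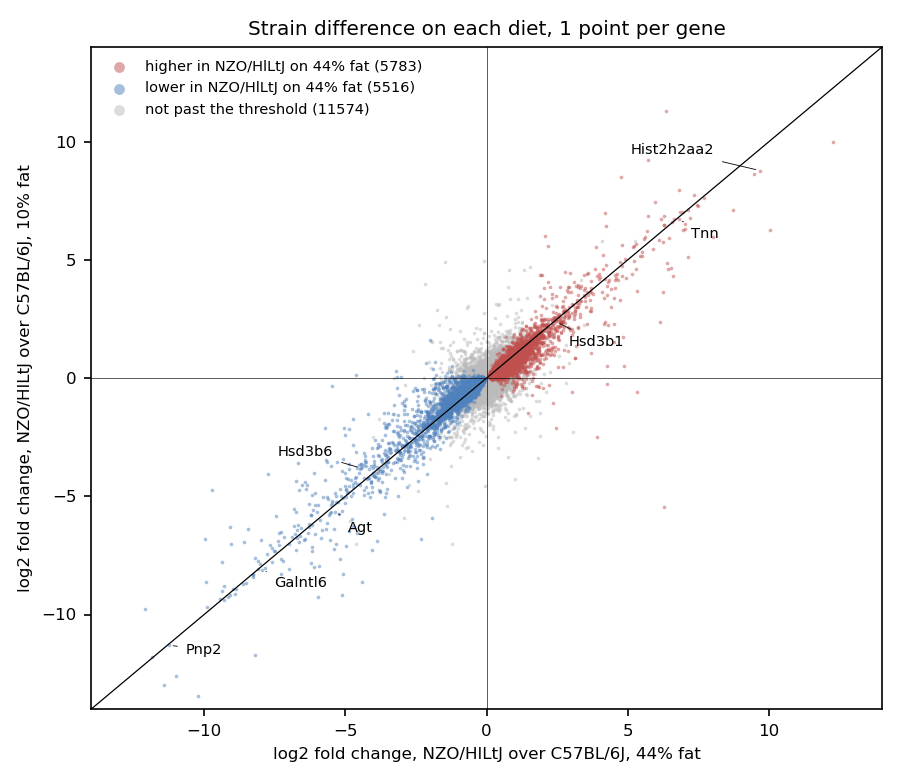
Log2 fold change of NZO/HlLtJ over C57BL/6J for each gene tested, on 44% fat along the x axis and on 10% fat along the y axis, with points coloured by the call on 44% fat, 7 genes named and a line of equality. The 5783 higher and 5516 lower genes lie along the line, Hsd3b1 above 0 and Hsd3b6 and Agt below 0 on both axes.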

How the data were processed

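Testis polyA RNA of 23 libraries was sequenced with a target of 30 M read pairs, per the labels' protocols. The authors deposited estimated counts per gene, of which 23.1% were not whole (tolerance 1e-06), and a table of log2 values after a variance-stabilising transformation by the authors, used here as an alternative. The submitters' processing notes name GRCm38 and DESeq2. Aligner, counter, use of strand and treatment of strain variants were not given in the sources used here. All genes of the table had counts in at least 12 libraries, so a gene read in few libraries can be missing.

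Estimated counts were rounded, filtered with filterByExpr on the 6 groups of strain and diet (22873 of 28861 genes left), scaled by TMM and fitted in edgeR 4.0.16 (R 4.3.3) with all 23 libraries and 1 mean per group. Quasi-likelihood F tests gave NZO/HlLtJ minus C57BL/6J on each diet and the difference of these, with Benjamini-Hochberg adjustment over all genes tested and a threshold of 0.05. The script was tested on simulated data. Alternatives were other size factors, no filter, DESeq2 1.42.0, the 8 or 16 libraries alone, the run of ID numbers as a term, limma 3.58.1 on the log2 values, a fold of at least 2, and leaving out each of the 8 libraries on 44% fat; leaving out each of the 8 libraries of these strains on 10% fat was added after seeing the data, for counts over all genes. Nothing in the labels ties the replicates to separate cages or days, and p-values measure the spread between these samples. In 12 pairs of replicates the chi-square over its degrees of freedom was 3.87 to 11.0, more than counting error gives. ID numbers fall into 3 runs, which no label calls batches. Of the called genes, 99.4% had the same direction within the run of 2 NZO/HlLtJ and 1 C57BL/6J libraries and 99.6% within the other such run, and the remaining run holds C57BL/6J only. These genes were called from the same libraries, so the shares are high by construction and test nothing about the runs.

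Named genes with official symbols were the 12 largest changes per direction of at least 50 CPM without overlap, the 5 largest of at least 5 CPM, up to 4 called members of each list with the smallest p, the 5 smallest p of the difference between diets, and Nnt. Genes beside this rule, H2-Ea-ps included, were chosen after their values were seen. A lack of overlap follows from the choice in the genes of largest change, and in part in those of smallest p. Not every gene named by the rule is described, and some genes are not reported here. Members and the 36 lists (738 of 775 symbols tested, some in more than 1 list) were chosen with earlier results of these data known, and lists have no test. Bounds use 3 counts over the group, and exact 95% intervals cover counting error only. Gene positions are the authors', and 99.3% of gene IDs were found in GENCODE M21. Sequences are from RefSeq (GRCm38.p6).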

Additional observations from a re-analysis of the deposited data

Results flagged for a closer look

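On 44% fat, 426 groups of 4 libraries (the named genes and the summed levels of 16 marker lists in each strain) were searched for a library whose gap to the nearest other exceeded Dixon's 95% critical value as a share of the range. It was exceeded in 23 (5.40%), and chance alone flags about 1 in 20. In NZO/HlLtJ replicate 1, values stood below those of the other 3 replicates for Msmo1 (43.6 CPM against 47.7 to 48.2), Dcn (42.6 against 53.2 to 54.8), Atp5o (62.8 against 65.0 to 65.2) and mt-Cytb (1502 against 1654 to 1664). Replicate 2 was high for H2-D1 (36.3 CPM against 26.5 to 28.0) and low for Pakap (7.61 against 10.1 to 10.5) and Fam205a4 (149.7 against 169 to 172). Replicate 3 was high for Nfkb2 (5.6 CPM against 3.57 to 3.71), Atrx (62.0 against 54.6 to 55.6) and the summed Sertoli list (2134 against 1745 to 1784), and low for Gstm5 (962 against 1073 to 1087). Replicate 4 held the only NZO/HlLtJ count of Itpr3os and of Vmn2r7, each 0.0279 CPM.

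In C57BL/6J, replicate 1 was high for Dusp16 (33.5 CPM against 31.6 to 31.8) and Ifi27 (9.95 against 9.15 to 9.26). Replicate 2 was high for Hba-a1 (0.234 CPM, with 0 in the others) and Thrsp (1.70 against 0.870 to 0.932) and low for Akap3 (1222 against 1243 to 1244). Replicate 3 was low for Lck (0.737 CPM against 1.32 to 1.42). Replicate 4 was high for Eif2ak3 (5.43 CPM against 4.74 to 4.75), mt-Co1 (6794 against 6293 to 6312) and Hist2h2aa1 (152 against 129.9 to 132) and low for Slc9c1 (195 against 212 to 215).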

How the results depend on the processing

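On 44% fat the 11299 calls became 10716 to 11527 under other size factors, no filter, DESeq2, 8 or 16 libraries, the run term and limma on the deposited log2 values, and 10255 without the 2 NZO/HlLtJ libraries that stand apart, replicate 3 on 44% fat and replicate 4 on 10% fat (added after seeing the data). A fold of at least 2, by edgeR's glmTreat, left 1095 calls, 471 higher and 624 lower, by its stricter threshold. Leaving out 1 library on 44% fat gave 10086 to 10857 calls, 5147 to 5569 higher and 4939 to 5288 lower, 8080 to 8264 in the same direction on both diets, and 0 to 1 with a difference between diets. Leaving out 1 library of these strains on 10% fat (added after seeing the data) gave 11246 to 11408 calls, 5714 to 5840 higher and 5496 to 5582 lower, 7545 to 8321 in the same direction on both diets, and 0 to 1 with a difference between diets. Without C57BL/6J 10% fat replicate 4, which stands apart, 11408 genes were called on 44% fat, 8321 in the same direction on both diets and 0 for a difference between diets. That difference gave 3 calls by DESeq2 (Pakap, Gm9923 and 4930408K08Rik), 1 with 16 libraries (Pakap), 1 without C57BL/6J 44% fat replicate 4 and 1 without NZO/HlLtJ 10% fat replicate 1 (in both, the same gene with a clone name, adjusted p = 0.0423 and 0.0487) and 1 without NZO/HlLtJ 10% fat replicate 2 (Pgk1, adjusted p = 0.0387); the cause was not tested. Of 3152 values of 197 named genes under the 16 alternatives other than a fold of at least 2 and the libraries on 10% fat, 3114 kept their side of the threshold and 0 reversed. A call was lost in 37, in Adam26b, Ccdc7b, Cyp11a1, Hbb-bt, Insl3, Nfkb2, Nnt and Sdhc, and gained in 1 (Star). Of the 193 named genes that were called, 58 were called for a fold of at least 2. Of 576 list medians, 61 moved by more than their spread, many of them on the deposited log2 values. On the deposited log2 values the median was 0.20 for Leydig genes, 0.25 for Sertoli, 0.18 for undifferentiated spermatogonia, 0.11 for macrophages, 0.05 for immediate early genes, 0.16 for fatty acid uptake, 0.13 for fatty acid oxidation, 0.10 for insulin signalling and 0.23 for matrix. These values are variance-stabilised, with a lowest value of 7.67, which shrinks differences of low-count genes, so their medians are on another scale. Called higher and lower there were 12 and 3 Leydig, 18 and 1 Sertoli and 9 and 3 undifferentiated spermatogonia genes. Macrophage genes had 7 and 2, and immediate early genes 7 and 3. Fatty acid uptake had 15 and 9, oxidation 15 and 6, insulin signalling 12 and 5 and matrix 17 and 3. Other size factors gave 5 insulin genes lower, and the 8 libraries alone 5 adipose genes lower. Counts of 1 or 2 lower genes changed by 1 without single libraries: the count was 1 for macrophages without C57BL/6J replicate 2 or NZO/HlLtJ replicate 3, 1 for endothelium without any 1 library other than replicate 3 of either strain, 1 for interferon genes without NZO/HlLtJ replicate 4 or C57BL/6J replicates 3 or 4, and 0 for the insulin-like growth factors without C57BL/6J replicate 1 or NZO/HlLtJ replicate 3. It also changed by 1 in the lymphocyte, inflammatory, hormone receptor and clock lists. No paired analysis was possible because replicate numbers follow the order of the samples and pair no animals. What a greater depth would change was not tested.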
